A study of Mus musculus with 48 samples.

Results

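Translation efficiency (TE) was compared among genes of the mouse kidney with time of day set aside. It is the level of ribosome footprints relative to that of mRNA, both per coding length. The comparison joined all 24 RPF-seq libraries (sequenced ribosome-protected fragments) with all 24 RNA-seq libraries, which are the 48 libraries of the series. A gene entered if its median reached 0.5 RPKM (reads per coding length and library size) in both assays, which kept 11863 of the 12927 genes listed in either assay. Its log2 TE was computed in each of 24 tissue pools and expressed relative to the median gene of that pool.

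An mRNA with a high TE carries many ribosomes per length of its coding sequence, so its share of protein synthesis is larger than its share of mRNA. Features of the 5′ untranslated region (UTR) are known to set how often ribosomes start on an mRNA, among them upstream AUGs that capture scanning ribosomes, the bases around the start codon and hairpins bound by regulatory proteins. The mRNAs of the mitochondrial genome are translated inside the organelle by a separate kind of ribosome. Renal tubule cells are packed with mitochondria, whose respiratory chain joins subunits made by both systems.

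Kidneys came from male C57BL/6JRj mice aged 11-12 weeks, held in a 12 h light and 12 h dark regime and untreated. They were collected every 2 h at 12 times of day, from ZT00 (lights on) to ZT22, with 2 replicate pools per time and 2 mice per pool. Both libraries of a pool were made from the same lysate, RPF-seq after RNase I digestion and recovery of the ribosomes over columns, RNA-seq from the total RNA after removal of rRNA. In bulk tissue of this kind, fewer cells of a type and less RNA per cell cannot be told apart. The labels name no separate group of animals, and the p-values measure the spread between these 24 pools.

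The tissue label was checked against kidney markers. Kap, the androgen-regulated protein of the proximal tubule, was the gene with the highest median level in both assays, 105600 RPKM in RPF-seq and 44660 RPKM in RNA-seq. Umod, the uromodulin of the thick ascending limb, stood at 3801 RPKM in RPF-seq and 2534 RPKM in RNA-seq. Lrp2, the megalin receptor of the proximal tubule, stood at 1063 and 1193 RPKM. The markers listed for 5 kinds of tubule cell and for podocytes, endothelium and fibroblasts and muscle were all measured in both assays, while Cd3e of the leukocyte markers was not listed. The RPF-seq library of ZT04 replicate 2 stood apart, with 162 listed genes at 0 against at most 23 in any other RPF-seq library, and leaving out its pool changed the counts given next to 452 and 1429.

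Of the tested genes, 453 had a high TE, 3.82% of all, and 1436 had a low TE, 12.1% of all, so that 15.9% lay outside a 2-fold margin around the median gene (limma treat on 24 pools, Benjamini-Hochberg adjusted p under 0.05). The middle 50% of genes spanned log2 TE of -0.62 to 0.49, a 2.16-fold range. The central 95% of genes went from -2.14 to 1.25 and covered 10.4-fold. The lowest value was -5.53 in BC005537, on 3.98 RPKM of footprints and 192 RPKM of mRNA. The typical gene varied little from pool to pool, with a median SD of 0.22 on the log2 scale. Of the genes with a high TE, 445 lay above the median gene in all 24 pools, and 1432 of the genes with a low TE lay below it in all 24. Such agreement largely follows from the call, which weighs the mean against the spread over the same pools. Over all tested genes, 3216 lay above and 3534 below the median gene in all 24 pools, together 56.9%.

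**Figure D1:**
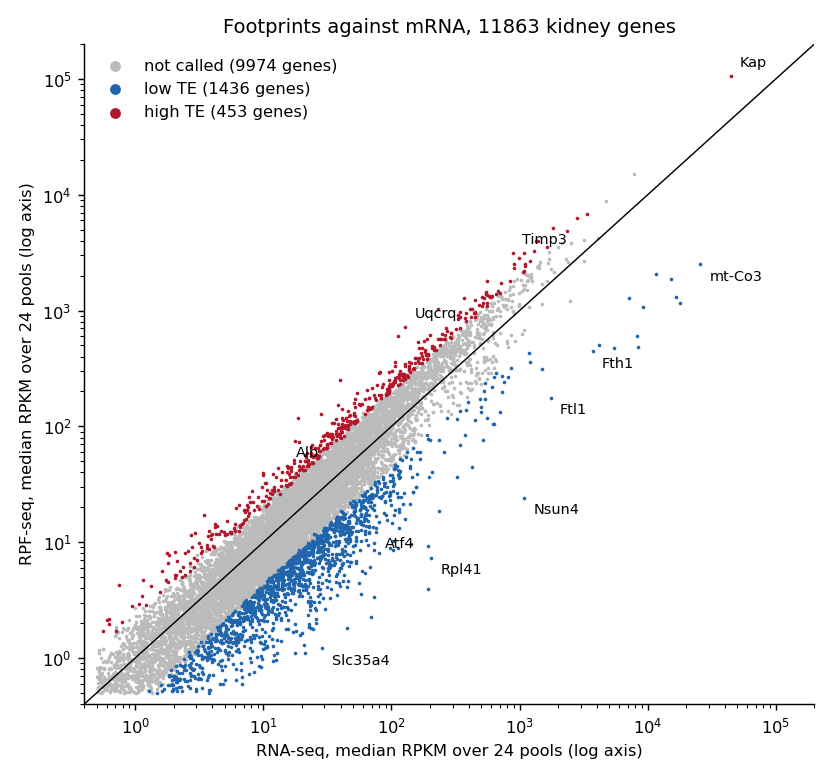
Median RPF-seq level against median RNA-seq level of 11863 genes over 24 pools, in RPKM on log axes. Red points mark 453 genes with a high TE, blue points 1436 genes with a low TE and grey points the 9974 others; the line marks equal RPKM. The blue points reach farther from the line than the red ones, among them Nsun4 with 24.2 RPKM of footprints on 1087 RPKM of mRNA.

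Start codons are printed here, because the bases around them are among the features known to set how often ribosomes start. They come from 4 of the highest and the 5 lowest nuclear genes with at least 5 RPKM in both assays and an annotated 5′ UTR. Each line gives 20 bases of the transcript from GENCODE vM21 (GRCm38), 5′ to 3′, with the start codon and the bases at positions -3 and +4 in capitals, counted from the A of the start codon as +1.
Uqcrq: cgccgtcAccATGGgccgcg
S100a11: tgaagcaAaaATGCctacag
Fkbp1a: cgccgccGccATGGgagtgc
Ubl5: tccagccAcaATGAttgagg
Nsun4: gttagttGacATGGctgcgc
Rpl41: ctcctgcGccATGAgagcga
Ccni: aagggatAccATGAagtttc
2610507B11Rik: ccggaccTaaATGCctctat
Rnf10: gccccctTtgATGCcgcaga
These windows lie at chr11:53430680-53430699 (minus strand) for Uqcrq, chr2:151542698-151542717 (plus) for Fkbp1a, chr9:20645194-20645213 (plus) for Ubl5, chr4:116053767-116053786 (minus) for Nsun4, chr10:128548951-128548970 (minus) for Rpl41, chr5:93202409-93202428 (minus) for Ccni, chr11:78261840-78261859 (plus) for 2610507B11Rik and chr5:115272404-115272423 (minus) for Rnf10, and that of S100a11 on chromosome 3 crosses an intron. A purine at -3 stood in all 4 high genes and in 3 of the 5 low genes. Over all genes the contrast was small. A purine at -3 was found in 93.5% of genes with a high TE, 81.7% of genes with a low TE and 87.1% of all 11507 genes that could be read, and a G at +4 in 46.2%, 50.1% and 53.3%.

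The 15 genes with the highest TE were taken among called genes with at least 5 RPKM in both assays and the same side of the median gene in every pool. Uqcrq, a subunit of respiratory complex III, had a log2 TE of 2.55 ± 0.53 (SD, n = 24). Its footprints ran from 632 over a median of 727 to 937 RPKM and its mRNA from 84.5 over 128 to 294 RPKM, so the assays did not overlap. S100a11, a calcium-binding protein, reached 2.53 ± 0.26 and Fkbp1a, a prolyl isomerase that binds FK506, 2.52 ± 0.44. Each of these 3 genes had more than 5 times the TE of the median gene, with folds of 5.87, 5.78 and 5.75 in that order. Their adjusted p was at most 2.59e-13 (limma treat). TE is the density of footprints relative to mRNA, not the number of ribosomes on each mRNA copy. These coding sequences are short, 249, 297 and 327 bases. The median over all genes was 1377 bases.

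The next genes of this group were Ubl5, a ubiquitin-like protein, at 2.33, Banf1, a chromatin-bridging factor, at 2.30, Nccrp1 at 2.24, Ywhag, a 14-3-3 protein, at 2.15 and Ifitm1, an interferon-induced membrane protein, at 2.13. Below them came Atp6v0c, the proteolipid of the vacuolar proton pump, at 2.04, Hmgn5, a nucleosome-binding protein, at 2.01, Hnrnpa3, an RNA-binding protein, at 1.98, Cxcl12, a chemokine, at 1.88 and Adi1, an enzyme of methionine salvage, at 1.88. Alb, serum albumin, closed the group at 1.87 and differed from the rest in its spread, which is described further on. Several of these genes have near-identical copies, and the share of coding 30-base words also found in another gene was 97.8% for Hnrnpa3, 92.9% for Atp6v0c, 88.4% for S100a11, 44.2% for Ifitm1 and 38.4% for Hmgn5. Reads of such genes can be split or lost in counting, so their TE is uncertain. It was 0% for Uqcrq, Nccrp1, Cxcl12, Adi1 and Alb.

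At the other end, Nsun4, a methyltransferase that acts on mitochondrial rRNA, had the lowest TE of genes with at least 5 RPKM in both assays, -5.40 ± 0.44 (SD, n = 24). Its mRNA level ran from 625 over a median of 1087 to 1751 RPKM and its footprints from 19.3 over 24.2 to 30.2 RPKM. No coding base of Nsun4 lay in an exon of another annotated gene, and it shared no 30-base word with one, but where its RNA-seq reads lie was not tested, so it cannot be told from these values whether they all came from Nsun4 mRNA. Rpl41, whose product is a very short ribosomal protein, followed at -4.50 ± 0.73 with a coding sequence that is 100% shared with copies. Ccni, a cyclin, stood at -4.20 ± 0.38 with footprints of 6.28 to 17.1 RPKM on mRNA of 164 to 218 RPKM, and 66.0% of its coding words were shared.

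The other low genes of the nuclear genome were 2610507B11Rik at -3.75, Bag1, a cochaperone of Hsp70 proteins, at -3.59, Rnf10, a RING finger protein, at -3.58, Cenpb, which binds centromeric DNA, at -3.52, Abhd17a, a depalmitoylase, at -3.49 and Gpbp1l1 at -3.33. All 6 had SDs of at most 0.298, with adjusted p of at most 2.07e-23 (limma treat). A low call and a place below the median gene in 24 of 24 pools were conditions for naming them. Among them, Bag1, Rnf10, Abhd17a and 2610507B11Rik shared none of their coding words with other genes. Rnf10 and Abhd17a each held 4 upstream AUGs in the annotated 5′ UTR and Gpbp1l1 held 19, whereas Ubl5, among the highest genes, held 20 in an annotated 5′ UTR of 1587 bases. The remaining 6 of the 15 lowest genes were encoded by the mitochondrial genome.

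**Figure D2:**
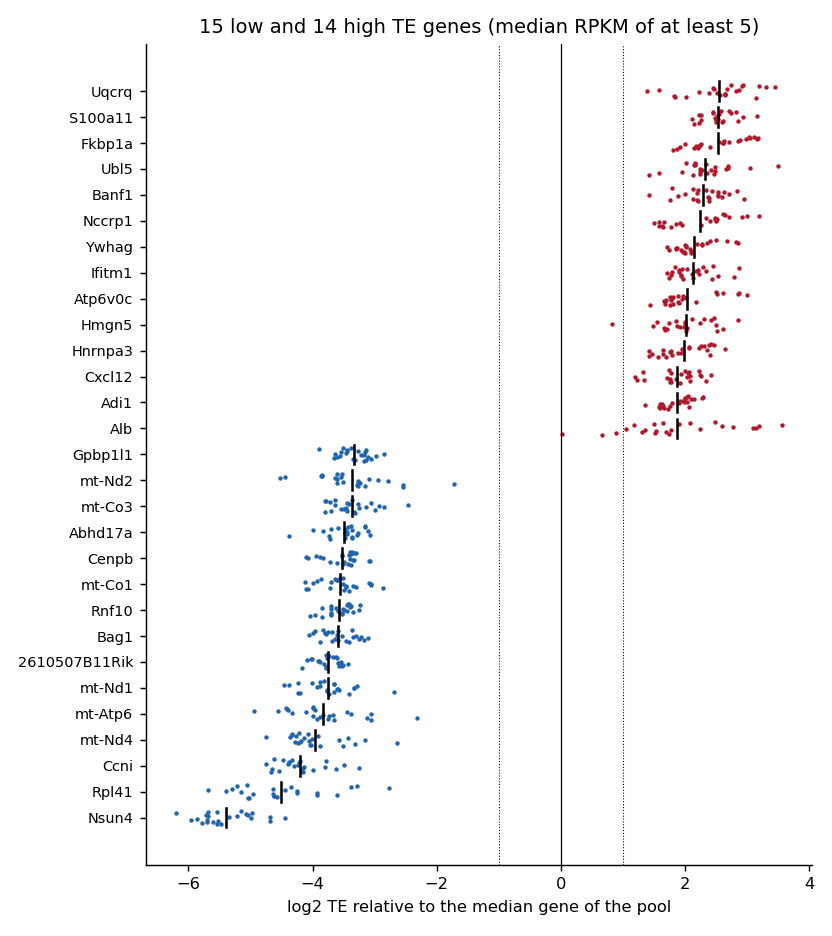
Log2 TE of 14 genes among the highest (red) and the 15 lowest (blue) genes in each of 24 pools, relative to the median gene of the pool; black bars are means and dotted lines mark 2-fold. No point of a low gene lies above -1.71, reached by mt-Nd2, and Alb has the widest spread of the high genes, from 0.01 to 3.56.

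The respiratory chain divided by genome of origin. Of 12 tested mitochondrial genes, 11 had a low TE and 0 a high TE, with a median of -3.18, whereas 12 of 78 tested nuclear subunits had a high TE and 0 a low TE, with a median of 0.64. Over all genes the percentages called were 3.82% and 12.1% and the median 0.01. The same split was seen within each complex that holds both kinds. Complex I had medians of -3.14 over 6 mitochondrial and 0.58 over 37 nuclear subunits, complex IV -3.37 over 3 and 0.74 over 12, and complex V -3.15 over 2 and 0.66 over 16. The gap was one of mRNA more than of footprints. The median subunit of complex IV had 16530 RPKM of mRNA and 1861 RPKM of footprints where mitochondrial, and 762 and 1462 RPKM where nuclear. Whether footprints of the separate mitochondrial ribosomes were recovered as fully as those of cytosolic ribosomes was not tested.

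Within the mitochondrial genes, the most abundant mRNA, mt-Co3 of complex IV, ran from 22010 over 25770 to 38970 RPKM and its footprints from 1670 over 2508 to 3741 RPKM, which gave -3.37 ± 0.34. The lowest was mt-Nd4 of complex I at -3.95 ± 0.47, followed by mt-Atp6 of the ATP synthase at -3.83, mt-Nd1 at -3.75 and mt-Co1 at -3.56. The exception was mt-Nd6, the subunit read from the opposite strand of the mitochondrial DNA, at 0.09 ± 0.64. Its mRNA level was 615 RPKM (291 to 1221), the lowest of the 12, and its footprints 657 RPKM (362 to 1355), so the assays overlapped. Nuclear copies of mitochondrial DNA hold part of these sequences, with shared words of 99.9% in mt-Co3, 62.8% in mt-Nd4 and 0% in mt-Nd1. Of the 4 mitochondrial genes with at most 10% shared words 3 had a low TE, and their median was -2.73.

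Among nuclear subunits, Uqcrq was followed by Cox6b2, a complex IV isoform known from testis, at 1.77 on 14.2 RPKM of footprints, by Atp5g3, a ring subunit of the ATP synthase, at 1.56 and by Cox6c of complex IV at 1.53. Cox6c reached 3989 RPKM of footprints on 1401 RPKM of mRNA. The lowest was Cox7a2l, a factor that joins respiratory complexes, at -0.46 ± 0.22, which was not called. The TE of these 78 genes together was steady, with a median per pool between 0.53 and 0.81.

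Enzymes that feed the respiratory chain had similar values, though the lists overlap. Sdhc, which is also a subunit of complex II, was counted among both the nuclear subunits and the citrate cycle enzymes. The median was 0.78 for 18 citrate cycle enzymes, the highest of the metabolic lists, and 0.63 for 29 enzymes of fatty acid oxidation. In each list 2 members passed the test as high, 11.1% and 6.9%, beside 3.82% over all genes, and 0 as low, beside 12.1%. A mean above 0 was found in 17 of 18 and 25 of 29 members. Sdhc, a membrane anchor of succinate dehydrogenase, was the highest of the cycle with 1.38 ± 0.12, on footprints of 876 over 1025 to 1197 RPKM and mRNA of 350 over 425 to 496 RPKM. Acadl, the long-chain acyl-CoA dehydrogenase, led fatty acid oxidation at 1.33 ± 0.28 (1.10 and not called in light phase pools), and Crat, carnitine acetyltransferase, closed it at -0.87 ± 0.11. Detoxification enzymes, 72 of them tested, had 10 high members, 13.9%, and 0 low members and a median of 0.73. Gstm1, a glutathione transferase, was the highest at 1.43 ± 0.17 with 64.5% shared words, and Cyp4b1, Cyp2e1 and Cyp24a1, the enzyme that inactivates vitamin D, stood at 1.21, 1.23 and 1.25.

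Machines built from many subunits differed from each other. All but 1 of 36 proteasome subunits had a mean above the median gene, with a list median of 0.65. Of these subunits 2 were high, 5.56%, near the 3.82% over all genes, and 0 low, beside 12.1%. Psma1 was the highest at 1.35 ± 0.17 and Psmd2 the lowest at -0.02 ± 0.07. In the 14 subunits of the core particle, footprint levels per length spread from 151 to 383 RPKM and mRNA levels from 75.9 to 222 RPKM, with SDs of 0.43 and 0.48 on the log2 scale. In the 8 subunits of the cytosolic chaperonin CCT the spread was 142 to 218 RPKM and 107 to 165 RPKM. The vacuolar proton pump had 4 high and 1 low member of 22, 18.2% and 4.55%, beside 3.82% and 12.1% over all genes. Its median was 0.50, from Atp6v0c at 2.04 to Atp6v0a2 at -1.15. The mitochondrial ribosome had a median of 0.42 over 74 proteins, with Mrps34, of whose coding bases 50.9% face a gene on the opposite strand, highest at 1.70 and Mrpl30 lowest at -1.46.

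The cytosolic ribosome behaved otherwise. Of 81 tested ribosomal protein genes, 24 had a low TE, 29.6% against 12.1% of all genes. A high TE was called in 1, 1.2% against 3.82% of all genes, and the list median was -0.77. In each of 24 pools the median of these genes lay below the median gene, between -1.22 and -0.44. After Rpl41 the lowest were Rplp1, an acidic stalk protein, at -3.15, Rpl36 at -2.87 and Rps12 at -2.57, while Rps4l was the highest at 1.13 ± 0.24, a call that was lost with a pseudocount of 1 (1.07), with libraries scaled to the same sum (1.05), in light phase pools (1.05), without replicate 2 (1.04) and without the pool of ZT04 replicate 2 (1.11). Rpl23a and Rps25, from the middle of the list, stood at -0.54 and -0.49. Because 79 of the 81 genes either have over 10% of their coding words in processed copies elsewhere or have no coding transcript in the annotation used, their levels are uncertain in both assays, and the part of this in their TE was not tested.

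Translation factors, whose mRNAs often share a start made of pyrimidines with ribosomal protein mRNAs, were called about as often as other genes. Of 69 tested genes 3 were high, 4.35%, and 8 low, 11.6%, beside 3.82% high and 12.1% low over all genes, with a median of 0.26. Eif5a, the factor modified to hypusine, was the highest at 1.54 ± 0.23 and Eif4g2, a scaffold protein that lacks the cap-binding site, the lowest at -1.69 ± 0.16. Eef1a1, the elongation factor that delivers tRNA, had a low TE of -1.48 ± 0.42, with footprints of 202 over 427 to 622 RPKM and mRNA of 1001 over 1179 to 1317 RPKM. Eef2 at -0.81, Pabpc1, the poly(A)-binding protein, at -0.89 and Tpt1 at -0.84 were not called. The difference by time was not tested for these 3 genes, whose means in the light phase and in the dark phase were -1.06 and -0.55 for Eef2, -1.16 and -0.62 for Pabpc1 and -1.32 and -0.35 for Tpt1. Shared coding words made up 88.5% in Eef1a1, 42.9% in Eif5a, 28.6% in Eef2, 50.7% in Pabpc1 and 100% in Tpt1. The TE of these genes is therefore uncertain. Aminoacyl-tRNA synthetases stayed within the margin, with 0 of 37 called in either direction and a range of -0.58 to 0.90.

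Genes known for upstream open reading frames in stress responses formed the list with the lowest median after the mitochondrial genes, -1.11. Of 17 tested members 9 had a low TE, 52.9% beside 12.1% over all genes, and 1 a high TE, 5.88% beside 3.82%. The list was assembled from published knowledge of such frames and so is not an independent sample of low TE genes. Slc35a4, a transporter gene known for a long upstream frame, was the lowest at -4.23 ± 0.43, with footprints of 0.69 over 1.21 to 2.88 RPKM and mRNA of 16.8 over 28.9 to 37.6 RPKM. Ppp1r15a, a phosphatase subunit that reverses the stress block of initiation, stood at -3.14 ± 0.52, Atf4, the main transcription factor of that response, at -2.38 ± 0.27 and Ddit3, its target, at -2.22 ± 0.44. Gadd45g, with 0 upstream AUGs in the chosen transcript, was the high member at 1.42 ± 0.25. Nr1d1, a repressor of the clock, was at 0.43 ± 0.32 with 2.

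The upstream AUGs of Atf4 and Ppp1r15a are shown here with 10 bases on each side, AUG in capitals, in their order from the 5′ end, since they are the feature for which the genes were listed.
Atf4 upstream AUG 1: cttttctctcATGgggcctttag
Atf4 upstream AUG 2: tgcggccaccATGgcgtattaga
Atf4 upstream AUG 3: ggcctaagccATGgcgctcttca
Ppp1r15a upstream AUG 1: cgcgtggacgATGttggcgcaga
Ppp1r15a upstream AUG 2: ggaagattacATGcgatatcccg
Ppp1r15a upstream AUG 3: tgagggcgacATGaacccgctgg
The first of Atf4 (chr15:80255293-80255315, plus strand, GRCm38) opened a frame of 36 codons and the second (chr15:80255572-80255594) one of 3 codons, while the third met no stop codon in the first 60 coding bases and so overlapped the start of the protein. The 3 of Ppp1r15a (chr7:45526222-45526244, chr7:45526178-45526200 and chr7:45526077-45526099, minus strand) opened frames of 45, 34 and 26 codons that all ended before the start codon.

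Across all 11512 genes with an annotated 5′ UTR of at least 10 bases, TE declined with the number of upstream AUGs. The median log2 TE was 0.24 in 5739 genes with 0, -0.10 in 2657 genes with 1, -0.35 with 2, -0.46 with 3, -0.51 with 4 and -0.68 in 708 genes with 5 or more. Low TE was called in 4.51% of genes with 0 upstream AUGs and in 31.9% of genes with 5 or more, and high TE in 5.21% and 1.55%. The frames differed little by where they ended. The median was -0.26 in 3814 genes whose frames all ended before the start codon and -0.39 in 1959 genes in which at least 1 frame overlapped it.

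Coding length ran in parallel. The median log2 TE went from 0.56 in 212 genes under 300 bases, through 0.11 in 2769 genes from 1000 to under 1500 bases, to -0.77 in 766 genes of 4000 bases or more. Of the 1468 genes from 2500 to under 4000 bases and of these 766 longer ones, 0 had a high TE. Genes with a high TE had a median coding length of 708 bases, those with a low TE 1944 bases and all genes 1377 bases. Spearman's correlation with TE across genes was -0.40 for coding length and -0.34 for upstream AUGs, as a description, since genes are not independent replicates. Each relation was present within classes of the other. Among genes under 1000 bases the median went from 0.50 with 0 upstream AUGs to 0.03 with 3 or more, and among genes of 2500 bases or more from -0.21 to -0.93. The G and C content of the 5′ UTR showed no steady trend up to 70%, with medians of 0.05, 0.12 and 0.14 below 50%, from 50 to 60% and from 60 to 70%, and fell to -0.60 in 634 genes at 80% or more.

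**Figure D3:**
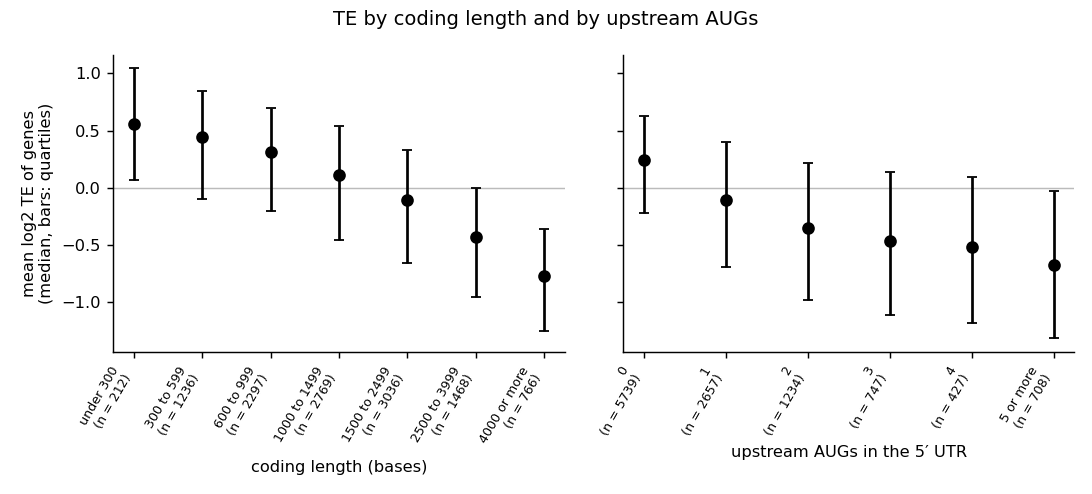
Mean log2 TE of genes by coding length (left) and by number of upstream AUGs in the 5′ UTR (right); points are medians over the genes of a class and bars run from the lower to the upper quartile, with the number of genes under each class. The medians decline from 0.56 to -0.77 with coding length and from 0.24 to -0.68 with upstream AUGs, and the quartile ranges of neighbouring classes overlap.

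Iron genes shared an element but not a TE. Iron regulatory proteins bind a hairpin, the iron-responsive element, whose loop begins with the letters CAGTG and stands 5 bases after a bulged C. The letters CNNNNNCAGTG (N is any base) were searched in the 5′ UTR of the 5 genes named here on the transcript strand, and 30 bases around each match are printed with the C and the loop in capitals.
Ftl1: gtgtcttgCttcaaCAGTGtttgaacggaa
Fth1: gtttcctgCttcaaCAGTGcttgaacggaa
Slc40a1: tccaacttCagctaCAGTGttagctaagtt
Epas1: cgtacaatCctcggCAGTGtcctgagactg
Alas2: ctttggttCgtcctCAGTGcagggcaacag
They lie at chr7:45459780-45459809 (minus strand) in Ftl1, chr19:9982730-9982759 (plus) in Fth1, chr1:45925466-45925495 (minus) in Slc40a1, chr17:86753766-86753795 (plus) in Epas1 and chrX:150547456-150547485 (plus) in Alas2, all in GRCm38. The letters alone are common, present in 7.77% of all 11512 5′ UTRs and in 6.89% of the last 200 bases of the 4935 that are at least as long, so a match is a description of the sequence.

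Both ferritin chains had a very low TE. Ftl1, the light chain, had mRNA of 1245 over 1755 to 2294 RPKM and footprints of 102 over 175 to 271 RPKM, which gave -3.24 ± 0.36, with 95.6% of its coding words shared with copies and 15.9% of its coding bases in an exon of another gene on the same strand. Fth1, the heavy chain, had mRNA of 2567 over 3724 to 6178 RPKM and footprints of 291 over 443 to 722 RPKM, which gave -2.99 ± 0.42 with 23.5% shared words. In both genes the assays did not overlap in any pool. The other genes with the letters lay between -1.12 and 0.12, with Alas2, the heme synthesis enzyme of red cells, at -1.12 ± 0.26, Slc40a1, the iron exporter ferroportin, at -0.37 ± 0.31 and Epas1, a hypoxia factor, at 0.12 ± 0.24. Tfrc, the transferrin receptor whose elements are in the 3′ UTR, was the highest of the list at 0.63 ± 0.18. In all, 2 of 9 tested members had a low TE, 22.2% beside 12.1% over all genes, and 0 a high TE, beside 3.82%. Of the 6 members with at most 10% shared words 0 were low, and their median was -0.12.

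Polyamine genes had a median of -0.72, and 2 of 12 were low, 16.7% beside 12.1% over all genes. Odc1, ornithine decarboxylase, the first enzyme of polyamine synthesis, stood at -2.31 ± 0.37, on footprints of 75.5 over 134 to 197 RPKM and mRNA of 543 over 703 to 902 RPKM. Oaz1, the antizyme that needs a ribosomal frameshift, was at -1.46 ± 0.21. Both share most coding words with copies, 83.1% and 91.0%. Azin1, the antizyme inhibitor, at -1.04 ± 0.28 and Amd1, which makes the aminopropyl donor, at -0.70 ± 0.21 were not called, and Sat2 was the highest at 0.94 ± 0.20. Selenoproteins, whose UGA codons are read as selenocysteine, had a median of -0.10 over 19 genes. Of them 1 was high, 5.26% beside 3.82% over all genes, and 0 low, beside 12.1%. Selenop, the plasma carrier with many such codons, had -0.98 ± 0.17 and Msrb1 1.38 ± 0.23, while Gpx1 and Gpx4 were at -0.25 and -0.36.

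Lists of transcription and mRNA decay factors are given beside the shares of 3.82% high and 12.1% low over all genes. Of 339 tested Zfp and related zinc finger genes, 86 had a low TE, 25.4%, and 1 a high TE, 0.295%, with a list median of -0.76 and 304 members below 0. Zfp236 was the lowest at -2.92 ± 0.17. The highest was Zfp36l1 at 1.49 ± 0.35, which is an RNA-decay factor and no transcription factor. Enzymes of histone lysine methylation had 7 low of 31, 22.6%, and 0 high. Their median was -0.73, from Setd5 at -2.26 to Kdm4a, a demethylase, at 0.20. Among 50 homeobox genes 8 were low, 16%, which is near the share over all genes, and 1 high, with Tshz1 at -3.02 and Emx2, which is needed for kidney development, at 1.62. Core clock genes had 4 low of 19, 21.1%, and 0 high. Their median was -0.21, with Per3 lowest at -2.09 ± 0.27, Per2 at -0.52 and Bhlhe40 highest at 0.62. The mRNA deadenylases and their partners had 5 low of 19, 26.3%, and 0 high, with Cnot6 at -2.40.

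**Figure D4:**
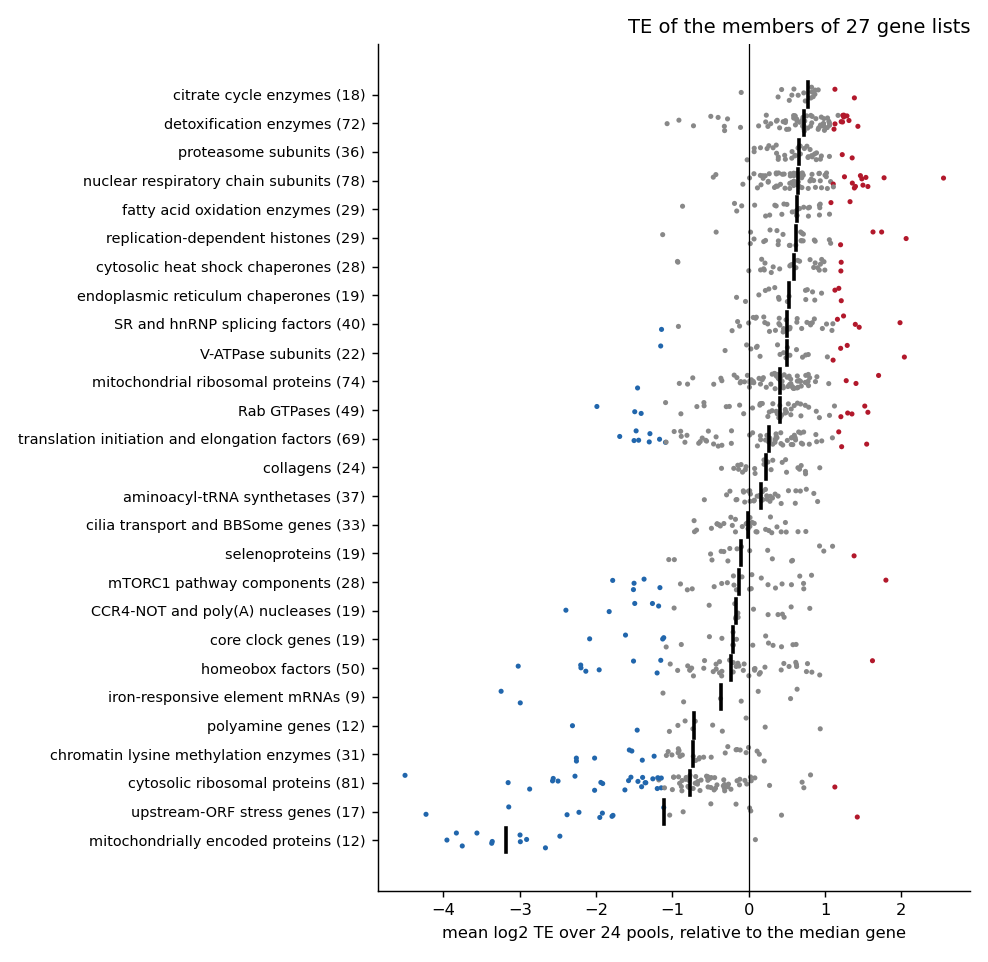
Mean log2 TE over 24 pools of the members of 27 gene lists, with the number of tested members in brackets; each point is a gene, red with a high TE, blue with a low TE and grey if not called, and black bars are list medians. The medians run from -3.18 for mitochondrially encoded proteins to 0.78 for citrate cycle enzymes.

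The lists that follow stand beside shares of 3.82% high and 12.1% low over all genes, and most hold few called members. Of 49 Rab GTPases, the switches of vesicle traffic, 5 were high, led by Rab7 of late endosomes at 1.56, and 3 low, with Rab28 at -1.99. Components of the mTORC1 pathway had 1 high and 5 low of 28, 3.57% and 17.9%, near those shares. Rraga, a GTPase that brings mTORC1 to the lysosome, was at 1.80 ± 0.37, and Depdc5, part of the complex that switches Rraga off, at -1.78 ± 0.17. Splicing factors of the SR and hnRNP type had 5 high and 1 low of 40, with Hnrnpul1 lowest at -1.14, not called without replicate 1 (-1.12) or in dark phase pools (-1.08). Chaperones of the endoplasmic reticulum had 3 high and 0 low of 19 and a median of 0.53, with Dnajb9 at 1.21 and Creld2 lowest at -0.16. Cytosolic chaperones had 2 high and 0 low of 28, from Chordc1 at 1.21 to Hspa1a at -0.93. Histone genes of the replication-dependent kind had 4 high and 0 low of 29, led by Hist1h2ab at 2.06 ± 0.92, which rested on few reads at 1.80 RPKM of mRNA. Replacement histones had 1 high and 0 low of 9, H2afx at 1.59 with 30.3% of its coding words shared. Immediate early genes had 2 high and 2 low of 20, from Klf2 at 1.70 to Srf at -1.47, and predicted and Riken gene models 4 high and 26 low of 180, 2.22% and 14.4%, also near them. Collagens and cilia transport genes had 0 called of 24 and 33.

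For the transport work of the kidney, 231 solute carriers outside the mitochondrial family were tested, with 11 high, 4.76%, and 18 low, 7.79%, beside 3.82% high and 12.1% low over all genes, and a median of 0.18. Slc31a1, the copper importer, was the highest at 1.63 ± 0.22, with mRNA of 79.5 to 121 RPKM and footprints of 259 to 331 RPKM. Some carriers of the tubule, chosen after their values were seen, stood at opposite ends. Slc34a1, the phosphate cotransporter, had 1.12 with 4840 RPKM of footprints on 2352 RPKM of mRNA, and Slc22a8, an organic anion carrier, had 1.28 on 564 and 238 RPKM. Slc22a12, the urate exchanger, had -1.62, with 358 RPKM of footprints on 1199 RPKM of mRNA. In the list of mitochondrial carriers, which holds Mpc1 beside genes of the Slc25 family, 1 of 43 was high and 6 were low. The high member was Mpc1, a pyruvate carrier outside that family, at 1.09, a call lost under 6 of 7 alternatives (1.01 to 1.12). Most of its coding words are shared with other genes, so its TE is uncertain. The lowest member was Slc25a23, a calcium-regulated carrier of ATP-Mg, at -2.78 ± 0.29.

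The lists of cell type markers hold 4 to 7 genes each, too few to set beside the share of 3.82% high over all genes, and segments were not compared. Of 7 proximal tubule markers 2 were high, Kap at 1.26 ± 0.20, which was not called in dark phase pools (1.16), and Slc34a1, and Lrp2 was the lowest at -0.11 ± 0.13. Of 5 principal cell markers 2 were high, the water channel Aqp3 at 1.86 ± 0.22 and Hsd11b2, which protects the mineralocorticoid receptor, at 1.67. Aqp2, the vasopressin-regulated water channel, at 0.88 ± 0.21 was not called. None of the 5 markers each of intercalated cells, podocytes, endothelium and of fibroblasts and muscle passed the test in either direction (limma treat), with ranges of 0.27 to 1.01, -0.39 to 1.06, -0.79 to 0.99 and -0.47 to 0.78. Of the thick ascending limb markers, Umod at 0.70 ± 0.12, Egf at 0.60, Slc12a1 at 0.11 and Cldn16 at -0.18 were not called either. Trpm6, the magnesium channel of the distal convoluted tubule, was low at -1.46 on 2.55 RPKM of footprints. The other markers of that segment, Calb1 at 0.96, Pvalb at 0.61 and Slc12a3 at 0.38, were not called. Among 4 leukocyte markers Cd74, the invariant chain, was high at 1.69 ± 0.21 and the others were not called.

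Markers of hepatocytes, a cell type foreign to the kidney, had 3 high members of 5, which were called in dark phase pools alone (3 of 5) and not in light phase pools (0 of 5). The difference between the phases was not tested. Alb ranged in RPF-seq from 21.3 over 45.4 to 130 RPKM and in RNA-seq from 4.72 over 15.2 to 24.4 RPKM. The highest footprint level, 130 RPKM in ZT12 replicate 1, came with 16.3 RPKM of mRNA in the same lysate, and the highest mRNA level, 24.4 RPKM in ZT00 replicate 2, with 23.6 RPKM of footprints. The log2 TE of Alb was 1.87 ± 0.88, and its mean was 1.31 in light phase pools and 2.43 in dark phase pools. Apoa1, an apolipoprotein, had 1.82 ± 0.97, with 1.16 in the light and 2.47 in the dark, and Fgb, a fibrinogen chain, 1.45 ± 0.77, with 0.93 and 1.96. Ttr, which the labelled tissue expressed at 401 RPKM of footprints and 281 RPKM of mRNA, had 0.53 ± 0.19, and Serpina1a had -0.35 ± 0.41. Of the 4 tested red cell markers 0 were called, with log2 TE of -1.12 to -0.44. What part RNA of another tissue has in these values was not tested.

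**Figure D5:**
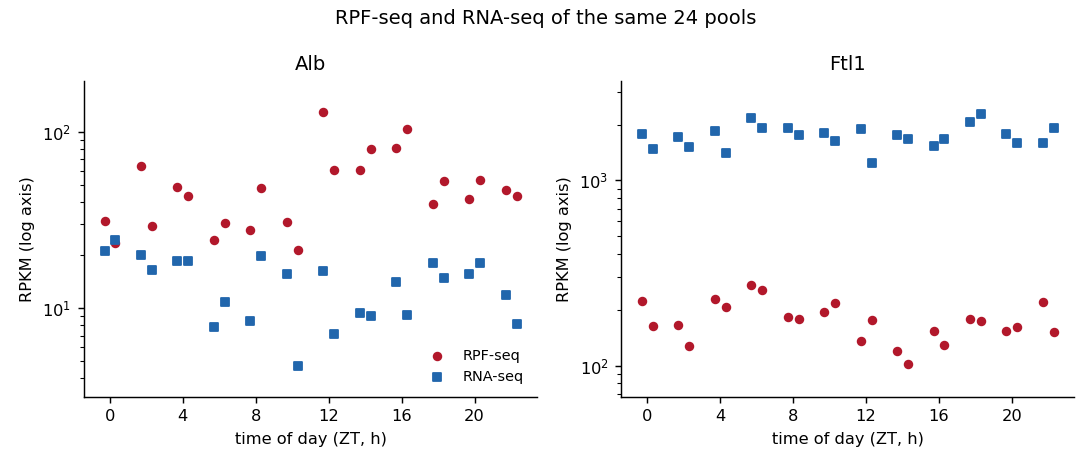
RPKM of Alb (left) and Ftl1 (right) in RPF-seq (red circles) and RNA-seq (blue squares) of the same 24 pools by time of day, on log axes; the replicates of a time stand side by side. Footprints of Alb run from 21.3 to 130 RPKM and lie above its mRNA in 23 of 24 pools, while footprints of Ftl1 never exceed 271 RPKM against at least 1245 RPKM of mRNA.

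Summed over lists, shares of the footprints were set beside shares of the mRNA. Each RPKM of a listed gene with a coding length was multiplied by that length and expressed as a percentage of all coding reads of the library. The 12 mitochondrial genes took 12.2% ± 1.87 of the mRNA reads and 1.17% ± 0.25 of the footprints (SD, n = 24), a lower footprint share in all 24 pools. Ribosomal protein genes took 1.84% ± 0.08 and 1.01% ± 0.14, again lower in all 24. Solute carriers outside the mitochondrial family took 4.17% ± 0.15 of mRNA and 5.40% ± 0.15 of footprints, nuclear respiratory chain genes 2.36% ± 0.07 and 3.40% ± 0.11, and detoxification enzymes 1.62% ± 0.10 and 2.98% ± 0.18, all higher among footprints in 24 of 24 pools. The 7 proximal tubule markers, Kap among them, took 4.32% ± 0.32 and 6.87% ± 0.56. How fully footprints of mitochondrial ribosomes were recovered was not tested.

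Time of day moved the order of genes little. Across genes the means of the light phase and of the dark phase correlated with a Pearson's r of 0.98, given as a description, and differed by a median of 0.11 on the log2 scale. In 21 genes they differed by more than 2-fold. Of these, named after their values were seen, the largest differences were in Ahsg, at 1.21 in the light and 3.14 in the dark, Vtn, at 0.89 and 2.76, and Serpina3k, at 1.72 and 3.48, all plasma proteins made by the liver and all under 10 RPKM in RPF-seq. Between replicate 1 and replicate 2 pools 0 genes differed by more than 2-fold.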

How the data were processed

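Kidney RPF-seq and RNA-seq were measured in 24 pools each. The authors deposited 1 table of RPKM values per library: per the labels and the study's methods, cutadapt removed adapters, Bowtie2 2.2.1 aligned reads to ribosomal and transfer RNA and then to cDNA, TopHat2 2.0.11 aligned the remainder to GRCm38 and Cufflinks 2.2.1 modelled transcripts. Reads in coding sequences were counted, scaled by upper quantiles and turned into RPKM. The authors dropped genes below an expression cutoff. Upper quantile scaling hides changes in total footprints or mRNA, so TE is relative.

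From these values, log2((RPF + 0.1)/(RNA + 0.1)) was computed per pool for 11863 genes with a median of at least 0.5 RPKM in both assays, and the pool's median was subtracted (ratio of the median gene 0.93 to 0.97 before that). The test was treat of limma 3.58.1 (R 4.3.3), with a margin of 1 on the log2 scale and a variance trend, with Benjamini-Hochberg adjustment over all tested genes and a limit of 0.05. The pseudocount shrinks the TE of low genes. The test was checked on simulated data. RPF-seq and RNA-seq libraries were paired by pool because both came from 1 lysate; the replicate difference at a time correlated between the assays across genes with r of 0.11 to 0.45 (12 times).

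Depth was read from the steps of the 300 lowest genes above 0 that have 1 annotated coding sequence: 64% to 97% of values were whole reads (tolerance 0.05) at an effective 9815347 to 33486661 coding reads in RNA-seq and 80% to 95% at 15501661 to 34923054 in RPF-seq. At 0.5 RPKM a coding sequence of 1377 bases then holds 6.76 to 24 reads.

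Named genes were the 15 highest and 15 lowest called genes with at least 5 RPKM in both assays on the same side in all pools, the highest and lowest member of each list with at least 5 tested members, and genes known for translational control. Other members named beside them were picked after their values were seen. Members and lists were chosen with earlier results of these data known. Lists are described by counts and medians, with no test. Features came from GENCODE vM21 (GRCm38), 1 coding transcript per gene; 12373 of 12423 genes listed in both assays have a symbol and 11784 of the tested genes a coding length. Alternatives in pseudocount, filter, scaling, test, pairing and pools are given in the closing section. Liver libraries were not analysed here, and results of some genes are not reported here.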

Additional observations from a re-analysis of the deposited data

Results flagged for a closer look

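Genes listed in 1 assay alone took no part in the comparison. In RNA-seq, 305 genes were listed that RPF-seq did not list, 49 of them with a median of at least 5 RPKM, whereas RPF-seq listed 199 genes that RNA-seq did not, 1 of them at that level. They drew notice because this signal lies outside the comparison, at 5 RPKM or more. Caps2, a calcium-binding protein gene, had a median of 68.3 RPKM in RNA-seq (44.9 to 91.7 RPKM over 24 pools), Hnrnpa0 53.3 RPKM, Rhob, a small GTPase, 46.0 RPKM and Cldn8, a tight junction protein of the collecting duct, 38.5 RPKM. The gene listed in RPF-seq alone was Apoc1, an apolipoprotein, at 8.54 RPKM (3.54 to 23.3 RPKM). No TE was computed for these genes, since a gene left out of an assay's tables has no value there, and the reason for its absence was not tested.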

How the results depend on the processing

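The counts of 453 genes with a high TE and 1436 with a low TE stayed within 1.5 times of these values under every alternative run except a looser margin and a rank test. With a 1.5-fold margin they were 1878 and 2684, and with a Wilcoxon signed-rank test at an adjusted p under 0.01 and a mean of at least 2-fold, 727 genes were high. Leaving out replicate 1 or replicate 2 gave 346 to 367 high and 1309 to 1321 low genes. Without centring they were 335 and 1631, and with libraries scaled to the same sum 338 and 1626, each of which moves the median of all genes by about -0.08. Without pairing (no replicate block) there were 388 and 1378, and with the replicate number as a block 454 and 1442, so pairing changed no count by over 1.5 times. A further 2 alternatives were chosen after seeing the data: without the pool of ZT04 replicate 2 the counts were 452 and 1429, and with 9978 genes that share at most 10% of coding words 383 and 1170.

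Of the medians of 40 lists under 9 alternatives, 24 values moved by more than the SD over pools and 336 did not. Of 122 named genes under 7 alternatives, 15 changed their call in at least 1, all in the same direction as before; they lie near the margin, such as Rps4l, Mpc1, Hnrnpul1 and Azin1, apart from Alb in the light phase. Depth limits genes near 0.5 RPKM, and near-identical copies limit genes with shared words, whether or not the share is printed beside them. The cause of moved values was not tested.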
